A study of Mus musculus with 9 samples.

Results

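The 34 genes described here carry glucose into the cell, break it down to pyruvate and lactate, pass pyruvate to the mitochondrion, or divert glucose carbon into the pentose phosphate pathway. They were chosen by gene symbol and measured in sorted mouse natural killer (NK) cells, lymphocytes that kill infected and malignant cells, on Affymetrix oligonucleotide arrays. Of the 34 genes, 31 had at least 1 probe set that the platform annotation assigns to that gene alone, 69 probe sets out of 45101 in the table. Gpi1, Eno1 and G6pdx had no probe set named here. Each gene was read through its brightest own probe set, and 29 of the 31 genes were bright enough to be tested. The brightest probe sets of Eno2 (21.8 to 48.1 over the 9 arrays) and Pdk2 (36.1 to 43.1) lay below the limit for testing, an intensity of 47.7 on average.

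Each of 3 groups held 3 arrays, labelled as biological replicates. IL15tg spleen NK cells came from mice with a transgene for the cytokine IL-15, and the series' design text calls them mature. The other 2 groups, NK cells of NKDxIL15tg spleen and of NKDxIL15tg bone marrow, came from mice that carry the same IL-15 transgene together with NKD, and the design text calls them immature. As background, NKD is a transgenic line that lacks mature NK cells. Its transgene, the receptor Ly49A driven by the granzyme A promoter, was reported to have inserted at Atf2. All groups therefore carry extra IL-15, and no group from normal mice was used here. The mice's ages and any pooling are not given in the sources used here. NKDxIL15tg spleen against IL15tg spleen (the splenic comparison) differs in maturity and NKD genotype together. NKDxIL15tg bone marrow against NKDxIL15tg spleen (the comparison of organs) differs in organ. NKDxIL15tg bone marrow against IL15tg spleen (the marrow comparison) differs in maturity, genotype and organ, and these cannot be told apart. The splenic and marrow comparisons share their IL15tg control arrays, so a like result in both is not independent.

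Glycolysis starts when glucose enters through GLUT proteins and a hexokinase traps it as glucose 6-phosphate. Phosphofructokinase commits the sugar to breakdown, and later enzymes yield ATP and pyruvate. Pyruvate is reduced to lactate and exported through monocarboxylate transporters, or enters the mitochondrion, where the pyruvate dehydrogenase complex turns it into acetyl-CoA. The pentose phosphate pathway branches off at glucose 6-phosphate and supplies NADPH and ribose for nucleotides. Activated or dividing lymphocytes, NK cells under IL-15 among them, are known to use more glucose through this route, and Hif1a and Myc are known to drive many of its genes.

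The proximal promoters of these genes were searched for short motifs to which such regulators can bind. The letters ACGTG, the core of the hypoxia response element bound by HIF proteins, and CACGTG, the E-box bound by Myc family proteins, were searched on both strands of RefSeq windows on the build GRCm38.p6, from 250 bases before to 50 bases after each start. CACGTG is a palindrome and contains ACGTG on each strand, so each E-box also counts as a core. The core was found in 21 of 48 windows (43.8%) of the 33 members with a window, and in 6447 of 32851 windows (19.6%) of all genes. By gene, 18 of 33 members (54.5%) and 21.8% of all genes had it. These 18 include Hk1, called lower in NKDxIL15tg bone marrow than in IL15tg spleen, and members with no call, such as Pkm. CACGTG was in 5 of the 48 windows (10.4%) against 7.15% of all windows. Of the 9 members called higher in NKDxIL15tg bone marrow than in IL15tg spleen, 6 held ACGTG, namely Gapdh, Hk2, Hk3, Ldha, Pgk1 and Slc16a1, and Ldha and Slc16a1 also held CACGTG. A match describes the letters only and shows no binding. The 250 bases before the start are shown for 4 of those genes, from hexokinase to lactate export, read 5′ to 3′ on the gene's strand, with each match in capitals, where a core on the opposite strand reads as its reverse complement. They lie at chr6:82774455-82774704 (minus strand, Hk2), chrX:106186850-106187099 (plus, Pgk1), chr7:46845554-46845803 (plus, 1 of the Ldha windows) and chr3:104638414-104638663 (plus, Slc16a1).
Hk2: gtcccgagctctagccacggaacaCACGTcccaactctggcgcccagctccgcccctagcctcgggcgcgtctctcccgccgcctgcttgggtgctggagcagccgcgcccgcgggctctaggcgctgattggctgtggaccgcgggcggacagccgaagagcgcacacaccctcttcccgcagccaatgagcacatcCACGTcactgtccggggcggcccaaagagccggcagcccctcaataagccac
Pgk1: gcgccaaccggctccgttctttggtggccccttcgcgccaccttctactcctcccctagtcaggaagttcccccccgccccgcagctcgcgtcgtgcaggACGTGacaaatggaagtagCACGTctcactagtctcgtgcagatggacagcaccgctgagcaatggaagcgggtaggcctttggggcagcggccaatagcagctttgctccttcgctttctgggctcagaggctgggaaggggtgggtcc
Ldha: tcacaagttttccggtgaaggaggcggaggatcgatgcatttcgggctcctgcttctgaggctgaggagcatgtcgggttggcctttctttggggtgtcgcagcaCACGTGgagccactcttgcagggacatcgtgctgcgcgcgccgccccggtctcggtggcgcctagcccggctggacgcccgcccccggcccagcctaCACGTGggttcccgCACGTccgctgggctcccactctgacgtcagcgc
Slc16a1: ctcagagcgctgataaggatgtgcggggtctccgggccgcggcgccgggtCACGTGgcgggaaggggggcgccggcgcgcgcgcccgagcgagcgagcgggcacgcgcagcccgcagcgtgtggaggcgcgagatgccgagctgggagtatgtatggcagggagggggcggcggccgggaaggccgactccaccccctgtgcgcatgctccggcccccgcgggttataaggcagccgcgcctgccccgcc
The Ldha stretch held 2 E-boxes and a further single core, while the Hk2 and Pgk1 stretches each held 2 cores and no E-box.

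The cells differed between groups in more than these genes. By median intensity the array that stood apart was NKDxIL15tg bone marrow replicate 3, at 64.9 where the other 8 had 56.6 to 59.1. This array also correlated least with its own group (mean rank correlation 0.936, against 0.956 to 0.98 elsewhere). The 3′ to 5′ log2 ratio of the actin control probe sets is a sign of RNA integrity and of amplification from the 3′ end. It was 1.8 to 2.73 in IL15tg spleen, 1.54 to 2.03 in NKDxIL15tg spleen and 0.93 to 1.77 in NKDxIL15tg bone marrow. IL15tg spleen replicate 3 had the highest ratios (2.73, and 3.21 for Gapdh). NKDxIL15tg bone marrow replicate 3 had the lowest for actin. The NK genes Ncr1, Nkg7 and Gzma were bright in every group. By limma, 0 of 10 tested NK genes rose and 3 fell in the splenic comparison (Klrd1, Klrk1 and Tbx21). In that of bone marrow against IL15tg spleen 0 rose and 4 fell (Prf1 in addition). At an unadjusted limma p below 0.05, 1 NK gene was higher and 5 lower in the splenic comparison, and 1 and 7 in the marrow comparison. The summed intensity of the 10 NK genes with an own probe set was 39517.0 to 41075.2 in IL15tg spleen, 28656.6 to 31897.1 in spleen NKDxIL15tg cells and 23526.7 to 26135.8 in those of bone marrow. Of the cell division genes, 24 of 28 tested rose in the splenic comparison and 27 of 28 in the marrow comparison, with sums over the list of 9132.1 to 10648.4, 14356.4 to 19376.3 and 22723.7 to 25310.0 in the same order of groups. Granulocyte and monocyte genes rose in 6 and 11 of 12, with sums of 1352.8 to 1673.6, 3523.9 to 8135.8 and 11848.8 to 31402.5. The granule genes Mpo and Prtn3 of that list also rose between organs. Erythroid genes rose in 3 and 4 of 6 tested, with sums of 1751.5 to 1882.7, 7386.8 to 7881.6 and 5274.7 to 7260.4. B cell genes fell in 3 of 5 tested in both comparisons, with sums of 1684.9 to 2909.1, 1734.3 to 3005.3 and 750.8 to 1190.6. Ms4a1 of that list also fell between organs. Of the macrophage and dendritic cell genes 2 of 4 tested, H2-Aa and H2-Ab1, fell in both comparisons, with sums of 1941.9 to 4039.0, 1317.0 to 1459.2 and 882.2 to 1456.6. No gene of these lists was at 0. Of the T cell genes 0 of 5 tested were called in the splenic or the marrow comparison. Their sums were 639.7 to 802.3, 600.9 to 1423.7 and 754.7 to 1305.3 in the same order of groups. Of 3 tested megakaryocyte genes, Gp1bb rose and Pf4 fell in the splenic comparison, and 0 were called in the marrow comparison. The sums of that list were 335.9 to 347.5, 343.2 to 391.6 and 324.4 to 359.4. The part of all these differences in the results below was not tested. In such sorted populations fewer cells of a type and less RNA per cell cannot be told apart.

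Most members had positive changes in NKDxIL15tg cells, 23 of 29 in the splenic and 25 of 29 in the marrow comparison, where 53.7% and 62.5% of all genes did. In the splenic comparison 6 of the 29 tested members rose, Hk2, Tpi1, Gapdh, Ldha, Slc16a1 and Pdha1, and 0 fell at a limma adjusted p below 0.05 (at an unadjusted p below 0.05, 9 were higher and 1 lower). Of all 12933 tested genes, 12.5% were called, 7.67% higher and 4.86% lower. The median log2 change was 0.23 over the members and 0.02 over all genes. In the marrow comparison 9 members rose, those 6 together with Hk3, Pgk1 and Pgd, and 2 fell, Slc2a3 and Hk1, where 20.2% of all genes were called, 11.5% higher and 8.70% lower. The median log2 change was 0.37 over the members and 0.12 over all genes. In the comparison of organs 0 of 29 members passed in either direction by limma (2 higher and 2 lower at an unadjusted p below 0.05), where 0.0696% of all genes were called, 0.0232% higher and 0.0464% lower, so that few calls were made among any genes.

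The arrays of the compared groups did not overlap for 10 members that were higher and 1 that was lower in the splenic comparison, where 21.3% and 15.1% of all genes did so. In the marrow comparison 20 members were higher without overlap and 2 lower, against 25.5% and 16.6% of all genes. Leaving out NKDxIL15tg bone marrow replicate 3 gave 6 higher and 0 lower members in the splenic comparison and 7 and 2 in the marrow comparison. The splenic count fell to 2, Hk2 and Pdha1, without IL15tg spleen replicate 1 or without replicate 2, fits in which the share of all probe sets called also fell, from 13.8% to 6.70% and 6.69%. It was 3 without IL15tg spleen replicate 3 or NKDxIL15tg spleen replicate 2, and also with a floor of 64 or with no filter on low values. The marrow count of higher members fell to 4 without IL15tg spleen replicate 1 or 2 and to 5 without NKDxIL15tg bone marrow replicate 2. The share of all probe sets called fell from 21.3% to 11.4%, 12.9% and 16.8% in these 3 fits. The 2 lower members were both lost in each of them, and 1 of them without IL15tg spleen replicate 3, with a floor of 64, with no filter, or with the mean of a gene's probe sets.

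**Figure D1:**
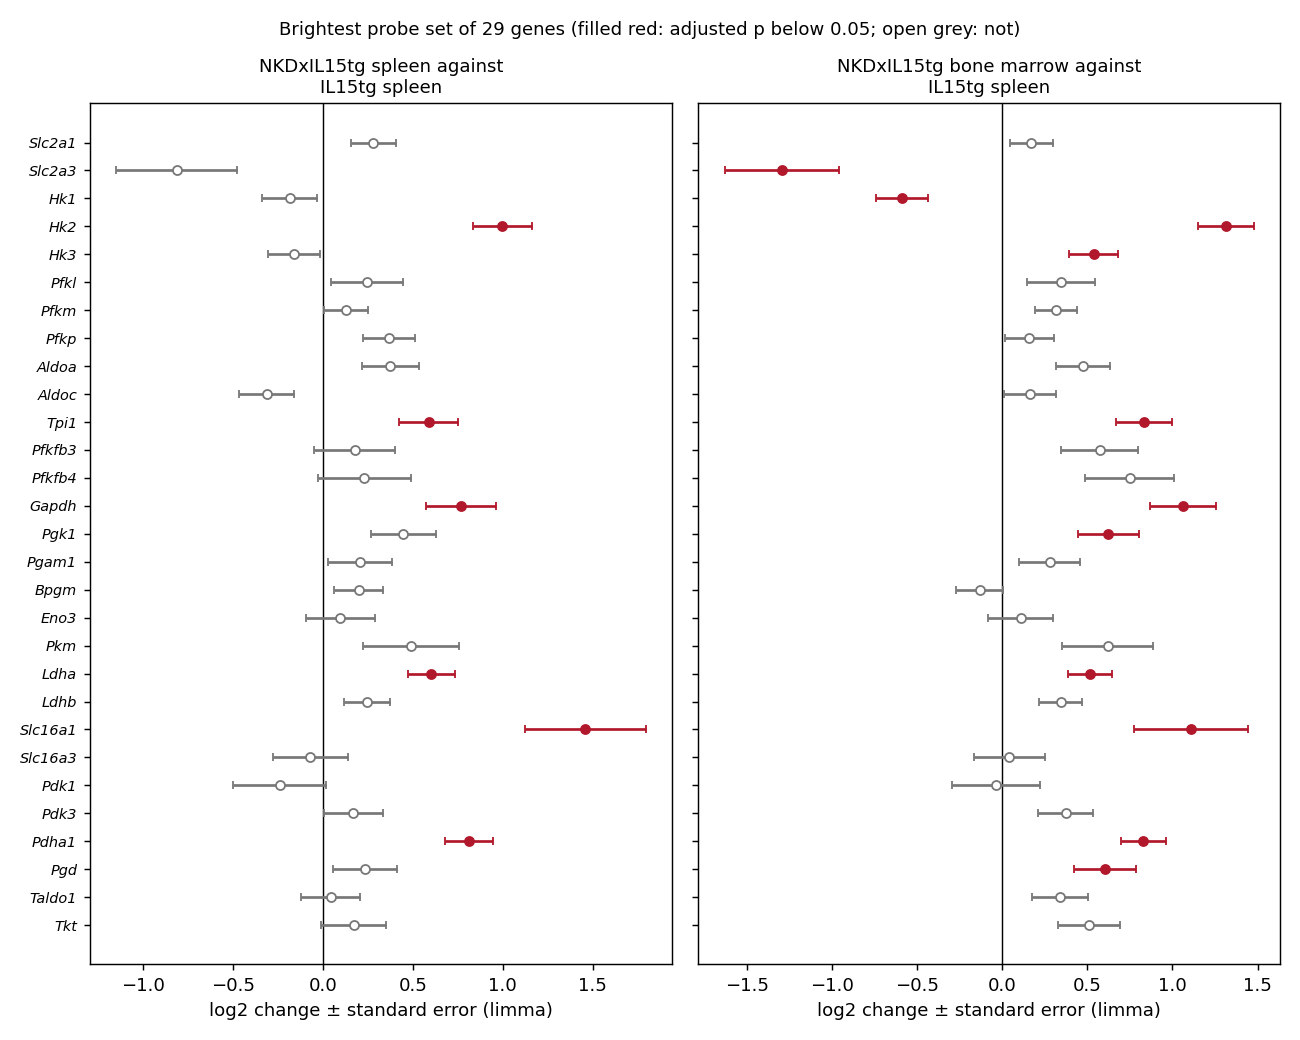
Log2 change of the brightest probe set of each of the 29 tested members (rows, in pathway order), with its limma standard error as a bar, in the splenic comparison (left) and the marrow comparison (right). Filled red points passed an adjusted p below 0.05 and lie to the right of 0 except for Slc2a3 and Hk1 in the marrow comparison.

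Glucose transporters did not move together. Slc2a1 encodes GLUT1, the widespread basal glucose transporter. It read 306.6, 318.3 and 315.7 in IL15tg spleen, 371.7, 446.8 and 332.6 in NKDxIL15tg spleen, and 336.1, 386.6 and 338.6 in NKDxIL15tg bone marrow. Every NKDxIL15tg array lay above every IL15tg array, but the log2 changes of 0.28 ± 0.13 (standard error; adjusted p 0.192) and 0.17 ± 0.13 (0.344) did not pass. Slc2a3 encodes GLUT3, a transporter with high affinity for glucose. It read 998.5, 980.6 and 690.4 in IL15tg spleen, 656.5, 693.7 and 273.0 in NKDxIL15tg spleen, and 414.3, 300.9 and 367.4 in NKDxIL15tg bone marrow. Its bone marrow arrays all lay below the IL15tg arrays, and the spleen groups overlapped at their edge. Slc2a3 fell by 1.29 ± 0.34 on the log2 scale in the marrow comparison (adjusted p 0.0256), while its change of -0.81 ± 0.34 in the splenic comparison did not pass (0.152). A further tested probe set of Slc2a3 gave -1.37 ± 0.31 (0.0141) and -0.83 ± 0.31 (0.114) in the same comparisons. The call in the marrow comparison was lost without IL15tg spleen replicate 1 or 2 or NKDxIL15tg bone marrow replicate 2 (adjusted p 0.0736 to 0.0943), with a floor of 64 (0.059) and with no filter (0.0567). With array weights Slc2a3 was also called in the splenic comparison (0.0476).

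Among the hexokinases Hk2 rose in both comparisons, while in the marrow comparison Hk3 rose and Hk1 fell. Hk2, the inducible hexokinase of growing cells, rose by 1.00 ± 0.16 on the log2 scale in the splenic comparison (2.00-fold, adjusted p 0.00489) and by 1.32 ± 0.16 in the marrow comparison (2.49-fold, 0.000875). Its intensities were 70.7, 73.9 and 72.3 in IL15tg spleen, 149.3, 165.7 and 121.7 in NKDxIL15tg spleen, and 194.1, 208.1 and 144.1 in NKDxIL15tg bone marrow. The IL15tg arrays were close to each other and all NKDxIL15tg arrays lay far above them. Hk2 was called in both comparisons under all 19 alternatives, with log2 changes of 0.90 to 1.12 and 1.21 to 1.48.

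Hk1 is the housekeeping hexokinase of most cells. It read 346.5, 412.5 and 345.8 in IL15tg spleen, 370.5, 349.6 and 259.6 in NKDxIL15tg spleen, and 261.2, 242.9 and 228.5 in NKDxIL15tg bone marrow. The bone marrow arrays lay below all IL15tg arrays, while the spleen groups overlapped. Hk1 fell by 0.59 ± 0.15 in the marrow comparison (adjusted p 0.0248), and its log2 change was -0.19 ± 0.15 in the splenic comparison (0.505). Its dimmer probe set, close to the limit for testing, gave -0.22 (0.299) in the marrow comparison. The call was lost without any 1 of the IL15tg spleen arrays or NKDxIL15tg bone marrow replicate 2 (0.0528 to 0.0943) and with the mean of both probe sets (0.0692).

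Hk3 is a hexokinase known best from myeloid cells. It read 153.9, 129.4 and 160.6 in IL15tg spleen, 141.1, 120.7 and 134.1 in NKDxIL15tg spleen, and 180.1, 226.1 and 240.0 in NKDxIL15tg bone marrow. The bone marrow arrays lay above all 6 spleen arrays. Hk3 rose by 0.54 ± 0.14 in the marrow comparison (adjusted p 0.0284), and its change between organs was 0.70 ± 0.14 (0.274). A dimmer probe set also rose in the marrow comparison, by 0.41 ± 0.12 (0.0454). Granulocyte and monocyte genes were highest in the same 3 bone marrow arrays, with the sums given above, and their part in the Hk3 value was not tested. The call was lost without IL15tg spleen replicate 1 or 2 or NKDxIL15tg bone marrow replicate 2 or 3 (0.051 to 0.105) and with only the 2 groups in the fit (0.053). In the splenic comparison the change of Hk3 was -0.16 ± 0.14 (0.543), and its sign turned with the mean of both probe sets.

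Within each array the log2 ratio of Hk1 to Hk2 was 2.26 to 2.48 in IL15tg spleen, 1.08 to 1.31 in the NKDxIL15tg cells of spleen and 0.22 to 0.66 in those of bone marrow. These ranges did not overlap between any groups. Only their change can be read, since different probe sets are not on a common scale. The ratio changed by -1.18 in the splenic comparison, by -0.72 between organs and by -1.91 in the marrow comparison. The exact 2-sided permutation p of each was 0.1, the smallest that 3 against 3 arrays allow. The ratio of Slc2a1 to Slc2a3 changed by 1.09 in the splenic and 1.47 in the marrow comparison, again without overlap and with an exact permutation p of 0.1. The organs overlapped on it (0.37, exact p 0.4). Other pairs were compared too. Hk2 to Hk3 did not overlap in either the splenic or the marrow comparison. Aldoa to Aldoc and Pdk1 to Pdk3 did not overlap in the splenic comparison but did in the marrow comparison (exact p 0.3 each). Pfkl to Pfkp, Pfkl to Pfkm, Pfkfb3 to Pfkfb4 and Pdk1 to Pdk2 overlapped in both (exact p 0.2 to 0.9).

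**Figure D2:**
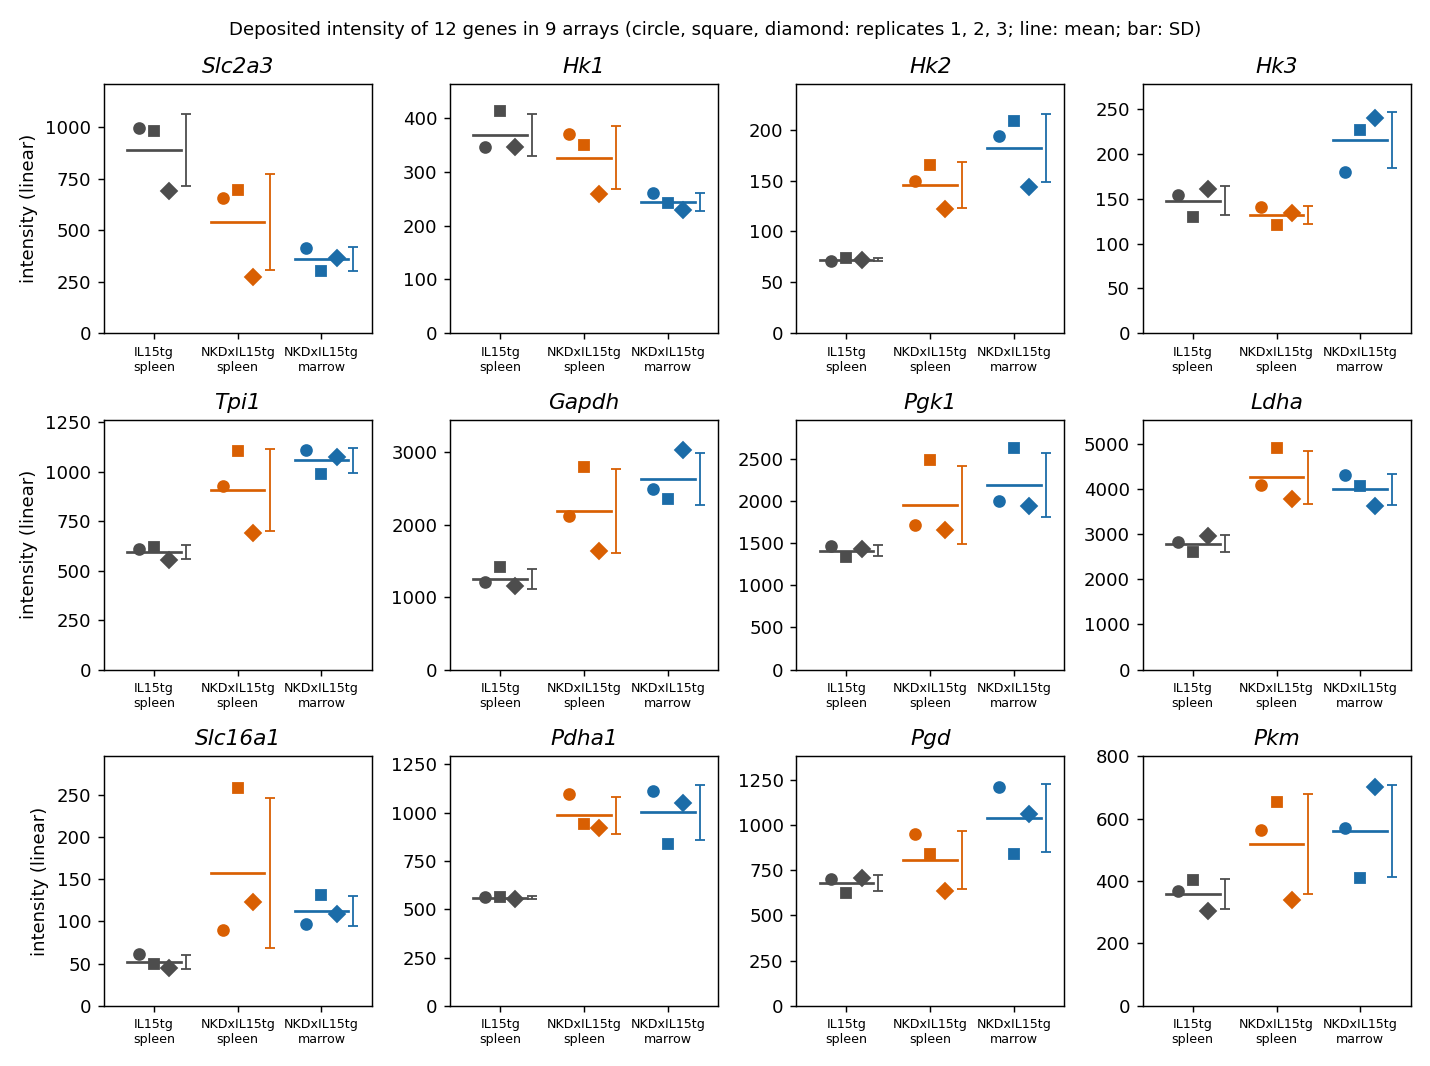
Deposited intensity (linear axis from 0) of 12 members in the 9 arrays, with replicates 1, 2 and 3 as circle, square and diamond, the group mean as a line and the SD of 3 arrays as a bar. Hk2 and Pdha1 show tight IL15tg arrays with all NKDxIL15tg arrays above them. The group means of Slc2a3 and Hk1 are lowest in NKDxIL15tg bone marrow, while the lowest single Slc2a3 array is NKDxIL15tg spleen replicate 3.

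In upper glycolysis Tpi1, which interconverts the triose phosphates, rose by 0.59 ± 0.16 in the splenic comparison (adjusted p 0.0455) and by 0.83 ± 0.16 in the marrow comparison (1.78-fold, 0.00807). Its intensities were 607.0, 620.8 and 554.1 in IL15tg spleen, 930.5, 1105.3 and 689.9 in NKDxIL15tg spleen, and 1109.4, 988.4 and 1073.9 in NKDxIL15tg bone marrow. All NKDxIL15tg arrays were above the IL15tg arrays, with NKDxIL15tg spleen replicate 3 the nearest to them. The other Tpi1 probe sets were also called, at 0.69 (0.0397) and 0.65 (0.0343) in the splenic and 0.74 (0.0214) and 0.90 (0.0063) in the marrow comparison. The marrow call held under all 19 alternatives. The splenic call was lost without any 1 of the IL15tg spleen arrays, without NKDxIL15tg spleen replicate 1 or 2 and without NKDxIL15tg bone marrow replicate 1 or 2 (0.0587 to 0.141). It was also lost with scaling to the 75th percentile (0.0654), quantile normalization (0.0623), a floor of 64 (0.0656) and no filter (0.0712).

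The phosphofructokinases catalyse the committed step. Pfkl and Pfkm, the liver and muscle forms, did not pass. Their log2 changes were 0.25 (adjusted p 0.498) and 0.13 (0.583) in the splenic and 0.35 (0.238) and 0.31 (0.101) in the marrow comparison. The sign for Pfkl differed between probe sets. A further one gave 0.37 (0.362) and 0.55 (0.131), and the remaining one -0.20 (0.304) and -0.18 (0.291), in the splenic and marrow comparisons. For Pfkp, the platelet form, the reading depended on the probe set. The brightest (probe set 1416069_at) read 1037.4, 1023.9 and 950.7 in IL15tg spleen, 1336.0, 1543.5 and 1052.7 in NKDxIL15tg spleen, and 1147.2, 1056.2 and 1159.7 in NKDxIL15tg bone marrow. Its log2 change of 0.37 ± 0.14 in the splenic comparison did not pass (0.13), although the spleen groups did not overlap. A dimmer probe set (probe set 1437759_at) read 444.2, 384.6 and 464.1 in IL15tg spleen, 219.0, 215.4 and 237.2 in NKDxIL15tg spleen, and 193.4, 210.1 and 205.6 in NKDxIL15tg bone marrow. It fell in both comparisons, by 0.94 ± 0.11 (0.000824) and 1.08 ± 0.11 (0.000293). The dimmest (probe set 1430634_a_at) read 54.8 to 71.3, 86.9 to 106.9 and 56.4 to 79.1 in the same order and rose in the splenic comparison by 0.64 ± 0.17 (0.0368). Pfkp was the only member with opposite calls among its probe sets in the splenic comparison, and no direction is given for it.

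The aldolases split fructose 1,6-bisphosphate. Aldoa read 782.4, 808.4 and 806.4 in IL15tg spleen, 1073.8, 1270.4 and 814.3 in NKDxIL15tg spleen, and 1037.2, 1080.2 and 1218.9 in NKDxIL15tg bone marrow. Its log2 changes were 0.37 ± 0.16 (adjusted p 0.163) and 0.47 ± 0.16 (0.0637) in the splenic and marrow comparisons, so no call was made although neither group overlapped the IL15tg arrays. All 5 probe sets of Aldoa had positive changes, and 1 of them (probe set 1434799_x_at) passed in the marrow comparison, at 0.71 ± 0.21 (0.0388). That probe set read 308.7, 353.9 and 324.3 in IL15tg spleen, 477.6, 674.2 and 356.9 in NKDxIL15tg spleen, and 484.7, 554.0 and 580.2 in NKDxIL15tg bone marrow. Aldoc, a dim relative, changed by -0.31 ± 0.15 (0.225) in the splenic comparison. The bifunctional enzymes Pfkfb3 and Pfkfb4 set the level of fructose 2,6-bisphosphate, which activates phosphofructokinase. Their log2 changes in the marrow comparison were 0.57 ± 0.23 (0.103) and 0.75 ± 0.26 (0.0723) on their brightest probe sets. On these both genes were highest in NKDxIL15tg bone marrow replicate 3, at 128.6 and 276.9. The other 2 bone marrow arrays read 71.2 and 71.6 for Pfkfb3 and 134.4 and 148.0 for Pfkfb4. A further tested Pfkfb3 probe set, nearly as bright, had the opposite sign. It gave -0.32 ± 0.15 (0.199) in the splenic and -0.31 ± 0.15 (0.161) in the marrow comparison.

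In lower glycolysis Gapdh was the member with the largest change. Gapdh, which oxidises glyceraldehyde 3-phosphate, was read through the array's 3 control probe sets, since its other probe sets are shared with pseudogenes. The 3′ set read 1204.6, 1413.0 and 1152.5 in IL15tg spleen, 2114.1, 2795.2 and 1640.4 in NKDxIL15tg spleen, and 2497.1, 2354.3 and 3038.6 in NKDxIL15tg bone marrow. All 6 NKDxIL15tg arrays lay above the IL15tg arrays. Gapdh rose by 0.77 ± 0.20 in the splenic (1.70-fold, adjusted p 0.0322) and by 1.06 ± 0.20 in the marrow comparison (2.09-fold, 0.00591). The middle set gave 0.99 ± 0.31 (0.0686) and 1.43 ± 0.31 (0.0126), and the 5′ set 1.61 ± 0.33 (0.0136) and 1.56 ± 0.33 (0.0106). The size thus moved with position along the transcript. The 3′ to 5′ log2 ratio, a sign of RNA integrity and of amplification from the 3′ end, was 1.99 to 3.21 in IL15tg spleen, 1.62 to 1.87 in the NKDxIL15tg cells of spleen and 1.87 to 2.33 in those of bone marrow. Its part in the result was not tested. The 3′ set was called in the marrow comparison under all 19 alternatives. Its splenic call was lost without any 1 of the IL15tg spleen arrays or NKDxIL15tg spleen replicate 1 or 2 (0.0633 to 0.109), with a floor of 64 (0.0577) and with no filter (0.0596).

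Pgk1 makes the first ATP of the pathway. It read 1466.0, 1341.7 and 1430.9 in IL15tg spleen, 1722.7, 2497.6 and 1655.1 in NKDxIL15tg spleen, and 2006.8, 2635.2 and 1944.0 in NKDxIL15tg bone marrow. Neither NKDxIL15tg group overlapped the IL15tg arrays. Pgk1 rose by 0.62 ± 0.18 in the marrow comparison (adjusted p 0.0383), and its change of 0.45 ± 0.18 in the splenic comparison did not pass (0.144). A further probe set also rose in the marrow comparison (0.76, adjusted p 0.0368), and the remaining one did not pass (0.49, 0.0779). The marrow call was lost without any 1 of the IL15tg spleen arrays, NKDxIL15tg spleen replicate 1 or NKDxIL15tg bone marrow replicate 1 or 2 (0.0502 to 0.118). It was also lost with the 75th percentile (0.0939), quantile normalization (0.105), a floor of 64 (0.0617) and no filter (0.0635).

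The other enzymes between Pgk1 and lactate did not pass on their brightest probe set. Pgam1, a phosphoglycerate mutase, had log2 changes of 0.20 and 0.28, and the muscle enolase Eno3 of 0.10 and 0.11, in the splenic and marrow comparisons. Pkm, the pyruvate kinase of lymphocytes, read 368.8, 401.7 and 305.0 in IL15tg spleen, 564.1, 651.8 and 340.7 in NKDxIL15tg spleen, and 571.3, 408.6 and 701.7 in NKDxIL15tg bone marrow. Its arrays spread widely within both NKDxIL15tg groups, and its changes of 0.49 ± 0.27 (adjusted p 0.282) and 0.62 ± 0.27 (0.134) did not pass. Bpgm, which makes 2,3-bisphosphoglycerate and is known best from red cells, differed between its probe sets. The brightest gave 0.20 (0.417) and -0.13 (0.5). The next (probe set 1415864_at) read 69.1, 84.4 and 56.9 in IL15tg spleen, 121.4, 135.9 and 105.6 in NKDxIL15tg spleen, and 71.2, 67.3 and 78.0 in NKDxIL15tg bone marrow. It rose by 0.80 ± 0.16 in the splenic comparison (0.0129) and not in the marrow comparison (0.06), so that only the NKDxIL15tg spleen arrays stood out on it. The dimmest Bpgm probe set had changes of -0.23 and -0.36 in the 2 comparisons, neither of which passed.

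**Figure D3:**
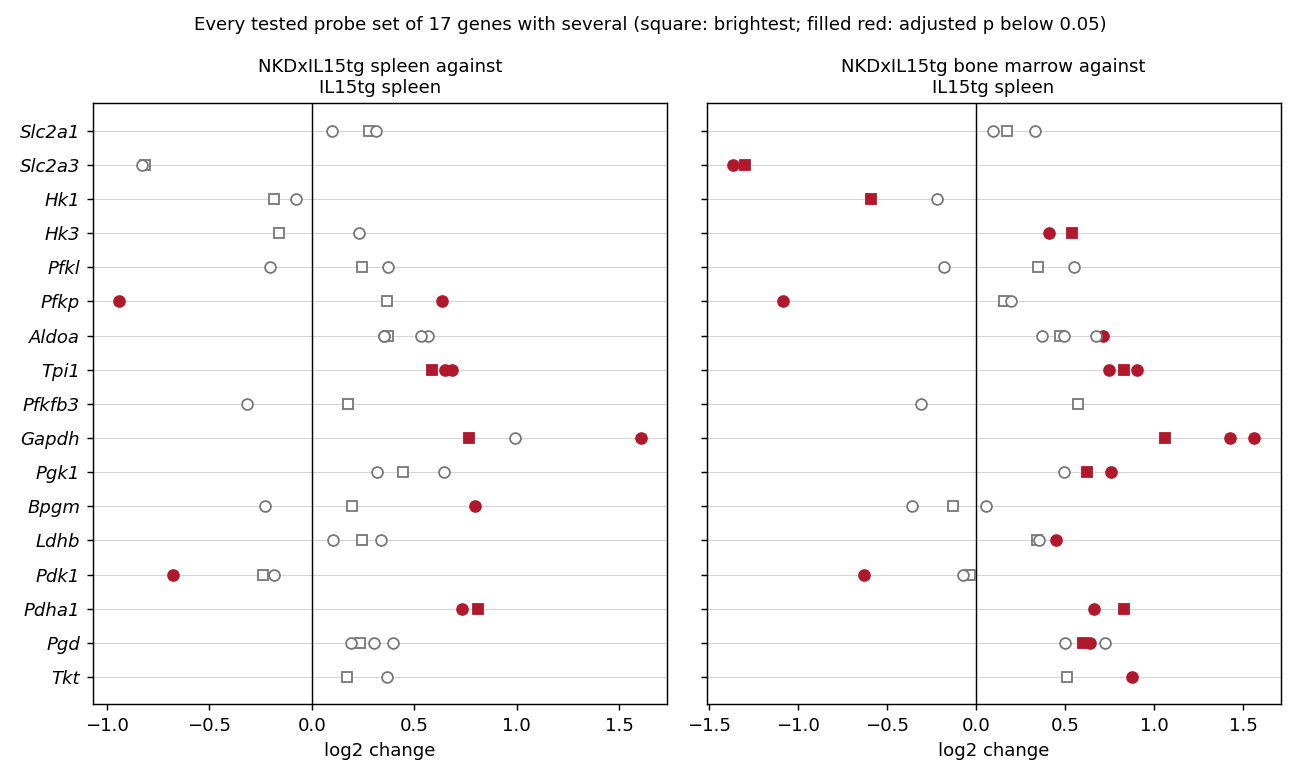
Log2 change of every tested probe set of the 17 members with several tested probe sets (rows), in the splenic (left) and the marrow comparison (right), with the brightest as a square and others as circles, filled red where the adjusted p was below 0.05. Tpi1, Gapdh and Pdha1 have probe sets close together or on the same side of 0, while those of Pfkp lie on both sides.

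Of the 17 members with several tested probe sets, 12 had the same sign on all of them in the splenic comparison. In the marrow comparison 13 of 17 did. Pfkl, Pfkp, Pfkfb3 and Bpgm had both signs in each comparison, and Hk3 in the splenic comparison. The share among all genes with several probe sets was not computed. Of the 60 tested probe sets of the members, 12 were called higher and 2 lower in the splenic comparison, against 6.76% and 7.04% of all tested probe sets (13.8% in all). In the marrow comparison 20 were called higher and 5 lower, against 9.80% and 11.5% (21.3% in all). The probe sets called lower in the splenic comparison belonged to Pfkp and Pdk1. Between organs 0 of 60 passed by limma, where 14 of 27043 probe sets did (0.0518%, with 0.0111% higher and 0.0407% lower), or 23 with the replicate number as a block.

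Ldha, the lactate dehydrogenase subunit that favours lactate, rose by 0.60 ± 0.13 in the splenic comparison (1.52-fold, adjusted p 0.0164) and by 0.52 ± 0.13 in the marrow comparison (1.43-fold, 0.0218). Its intensities were 2818.4, 2598.8 and 2956.4 in IL15tg spleen, 4096.7, 4911.3 and 3771.5 in NKDxIL15tg spleen, and 4300.8, 4065.0 and 3626.7 in NKDxIL15tg bone marrow. Neither NKDxIL15tg group overlapped the IL15tg arrays, and the change between organs was -0.09 (adjusted p 0.786). The splenic call was lost without IL15tg spleen replicate 1 or 2 or NKDxIL15tg spleen replicate 2 (0.0524 to 0.0704). The marrow call was lost without IL15tg spleen replicate 1 or 2 or NKDxIL15tg bone marrow replicate 1 or 2 (0.0573 to 0.084), with the 75th percentile (0.104) and with quantile normalization (0.0547). Ldhb, the subunit typical of heart, did not pass on its brightest probe set (0.25, adjusted p 0.25, and 0.34, 0.0836). A dim Ldhb probe set (probe set 1448237_x_at) rose in the marrow comparison by 0.45 ± 0.12 (0.0313), from 44.4, 49.5 and 49.1 in IL15tg spleen to 56.5, 65.8 and 74.0 in NKDxIL15tg bone marrow, with 48.3, 53.4 and 51.9 in NKDxIL15tg spleen. The within-array log2 ratio of Ldha to Ldhb was 4.95 to 5.24, 5.48 to 5.51 and 5.27 to 5.34 in IL15tg spleen, then NKDxIL15tg spleen, then NKDxIL15tg bone marrow. It changed by 0.36 in the splenic and 0.17 in the marrow comparison without overlap (exact permutation p 0.1 each). This ratio rests on the brightest Ldhb probe set, and the ratio to the other Ldhb probe sets was not computed.

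Slc16a1 encodes MCT1, which carries lactate and pyruvate across the membrane. It read 61.3, 49.98 and 44.7 in IL15tg spleen, 90.0, 258.2 and 122.9 in NKDxIL15tg spleen, and 96.7, 131.1 and 108.3 in NKDxIL15tg bone marrow. All NKDxIL15tg arrays lay above the IL15tg arrays, and NKDxIL15tg spleen replicate 2 stood far above its group. Slc16a1 rose by 1.46 ± 0.34 in the splenic (2.75-fold, adjusted p 0.0216) and by 1.11 ± 0.34 in the marrow comparison (2.16-fold, 0.0451). The splenic call was lost without any 1 of the IL15tg spleen arrays (0.0526 to 0.0802), with a floor of 64 (0.0949) and with no filter (0.0513). The marrow call was lost without any 1 of the IL15tg spleen arrays, NKDxIL15tg spleen replicate 3, or any 1 of the NKDxIL15tg bone marrow arrays (0.051 to 0.13). It was also lost with quantile normalization (0.0521), a floor of 64 (0.187) and no filter (0.0889). Slc16a3, which encodes the lactate exporter MCT4, was dim in all arrays (39.4 to 67.1) with changes of -0.07 and 0.04. The ratio of Slc16a1 to Slc16a3 changed by 1.53 in the splenic and 1.07 in the marrow comparison without overlap (exact permutation p 0.1 each).

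At the entry of pyruvate into the mitochondrion, Pdha1 rose in both comparisons. Pdha1 encodes the catalytic alpha subunit of pyruvate dehydrogenase and is the target of the inhibitory Pdk kinases. It read 563.3, 565.2 and 550.8 in IL15tg spleen, 1097.0, 942.5 and 919.7 in NKDxIL15tg spleen, and 1114.3, 838.6 and 1051.1 in NKDxIL15tg bone marrow. The IL15tg arrays were nearly equal and every NKDxIL15tg array lay well above them. The log2 change was 0.81 ± 0.13 in the splenic (1.76-fold, adjusted p 0.00448) and 0.83 ± 0.13 in the marrow comparison (1.78-fold, 0.0028). The further probe set gave 0.74 ± 0.14 (0.00877) and 0.66 ± 0.14 (0.00973). Pdha1 was called in both comparisons under all 19 alternatives, with log2 changes of 0.73 to 0.86 and 0.74 to 0.95.

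Of the member kinases that switch off pyruvate dehydrogenase, Pdk1 and Pdk3 were tested and neither was called higher. Pdk2 lay below the limit for testing and could not be called. Pdk1 on its brightest probe set read 256.5, 245.6 and 289.0 in IL15tg spleen, 165.5, 331.3 and 201.6 in NKDxIL15tg spleen, and 203.1, 328.1 and 253.2 in NKDxIL15tg bone marrow. Replicate 2 was the highest of both NKDxIL15tg groups, and the changes of -0.24 (adjusted p 0.637) and -0.04 (0.927) did not pass. A dimmer Pdk1 probe set (probe set 1435836_at) read 92.3, 98.5 and 115.4 in IL15tg spleen, 59.1, 62.7 and 69.7 in NKDxIL15tg spleen, and 55.7, 69.0 and 73.9 in NKDxIL15tg bone marrow. It fell by 0.67 ± 0.14 (0.0154) and 0.63 ± 0.14 (0.0145), and it alone of the 3 tested Pdk1 probe sets passed. Pdk3 had changes of 0.17 and 0.37, neither of which passed.

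Other genes of this step were followed because they act directly on pyruvate. Mpc2 and Pdk4 were to be followed as well, but no values are given for them here. Neither was among the called genes of the lists below. Mpc1, a subunit of the mitochondrial pyruvate carrier, rose by 1.21 ± 0.17 in the splenic (2.31-fold, adjusted p 0.00259) and by 1.07 ± 0.17 in the marrow comparison (2.10-fold, 0.00315). It read 337.3, 369.7 and 314.3 in IL15tg spleen, 659.2, 1013.6 and 721.7 in NKDxIL15tg spleen, and 811.6, 632.8 and 709.0 in NKDxIL15tg bone marrow, with no overlap. Mpc1 was called in both comparisons under all 19 alternatives. Dlat, the acetyltransferase subunit of the same complex as Pdha1, rose by 0.77 ± 0.14 (0.00652) and 0.62 ± 0.14 (0.0124), and the latter was lost with both scalings of the arrays (up to 0.0585). A second Dlat probe set gave 0.74 (0.0127) and 0.63 (0.017), and the remaining one did not pass in either comparison (0.20 and -0.01). Dld, the subunit that reoxidises the complex, named after its values were seen, rose by 0.63 ± 0.15 in the splenic comparison (0.025) but did not pass in the marrow comparison (0.39, 0.0976). The Dld call was lost without any 1 of the IL15tg spleen arrays or NKDxIL15tg spleen replicate 2 or 3 (up to 0.0889). Pdhb, the partner of Pdha1 in the same enzyme, had changes of 0.18 (0.395) and 0.26 (0.149), which did not pass, and its difference from Pdha1 was not tested.

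**Figure D4:**
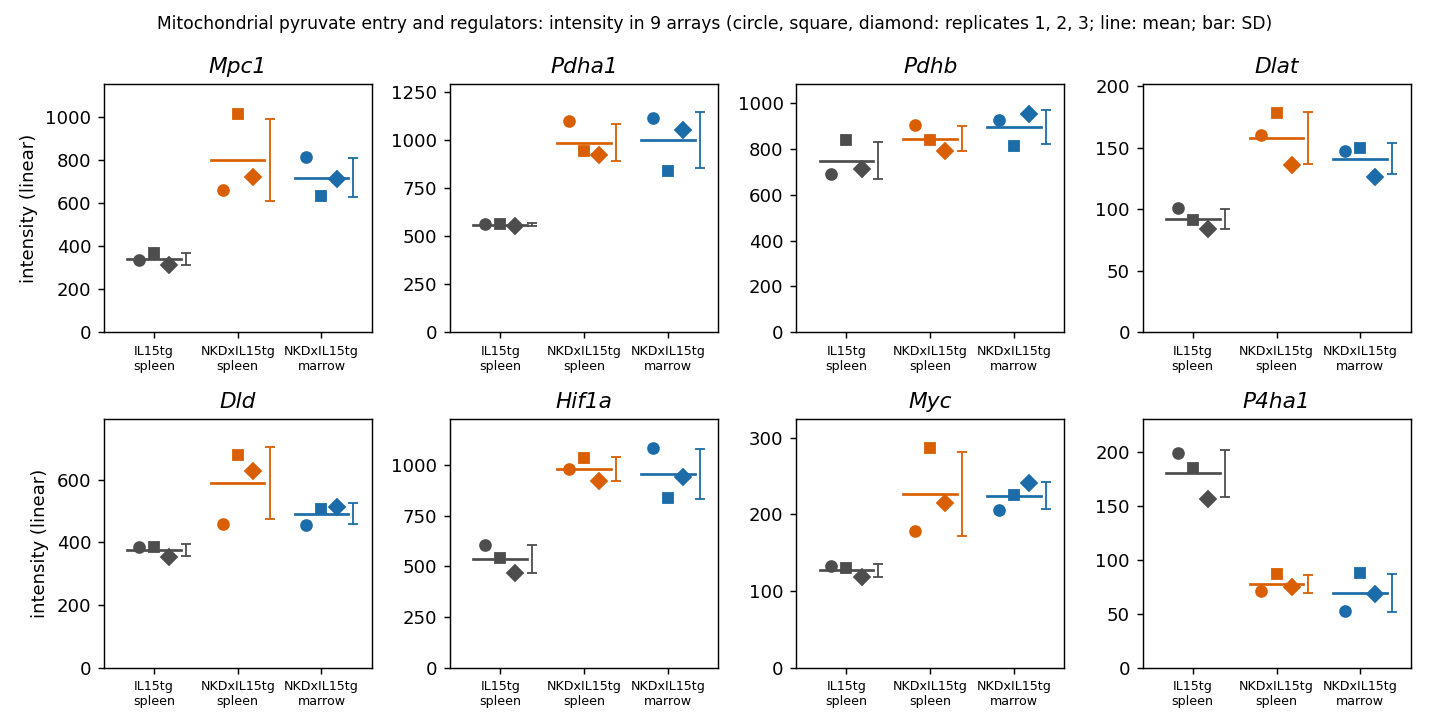
Deposited intensity (linear axis from 0) in the 9 arrays of genes of pyruvate entry into the mitochondrion (Mpc1, Pdha1, Pdhb, Dlat, Dld) and of the regulators Hif1a and Myc and the HIF target P4ha1, with replicates 1, 2 and 3 as circle, square and diamond, the group mean as a line and the SD of 3 arrays as a bar. The NKDxIL15tg arrays of Mpc1, Pdha1 and Hif1a lie above all IL15tg arrays, those of P4ha1 lie below, and those of Pdhb overlap.

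In the pentose phosphate pathway Pgd, which yields NADPH and ribulose 5-phosphate, rose in the marrow comparison only at the threshold. It read 700.8, 625.5 and 704.8 in IL15tg spleen, 949.0, 836.9 and 632.4 in NKDxIL15tg spleen, and 1211.9, 841.5 and 1061.4 in NKDxIL15tg bone marrow. The bone marrow arrays lay above all IL15tg arrays, and NKDxIL15tg spleen replicate 3 lay among the IL15tg arrays. The log2 change was 0.60 ± 0.18 in the marrow comparison (adjusted p 0.0432) and 0.23 ± 0.18 in the splenic comparison (0.472). The marrow call was lost without any 1 of the IL15tg spleen arrays, NKDxIL15tg spleen replicate 2, or NKDxIL15tg bone marrow replicate 1 or 3 (0.0561 to 0.135). It was also lost with the 75th percentile (0.0788), quantile normalization (0.0651), a floor of 64 (0.0683) and no filter (0.0702). A second Pgd probe set passed as well (0.64, adjusted p 0.0226), and the other 2 did not (0.0719 and 0.0573).

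Tkt and Taldo1, the transketolase and transaldolase that return pentoses to glycolysis, had marrow changes of 0.51 ± 0.18 (adjusted p 0.077) and 0.34 (0.174) on their brightest probe sets. A dimmer Tkt probe set (probe set 1451015_at) read 220.6, 247.2 and 221.8 in IL15tg spleen, 263.3, 373.2 and 263.4 in NKDxIL15tg spleen, and 466.4, 457.6 and 351.5 in NKDxIL15tg bone marrow. It rose by 0.88 ± 0.17 in the marrow comparison (0.0073), with bone marrow replicate 3 the lowest of its group. Outside the 34 genes, Pgls, which opens the lactone made by the first enzyme of the branch, rose by 0.80 ± 0.14 in the marrow comparison (0.00498) and had 0.18 (0.491) in the splenic comparison. Its arrays read 212.8, 221.4 and 268.5, then 270.1, 303.6 and 223.7, then 401.9, 387.8 and 431.3 in the same order of groups, so that bone marrow stood above both spleen groups. Rpia, which makes ribose 5-phosphate, had 0.21 (0.203) and 0.27 (0.0839). H6pd, the related enzyme of the endoplasmic reticulum, had -0.30 (0.571) and 0.07 (0.874).

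Of a wider list of other enzymes and transporters of glucose metabolism, 45 of 58 genes were tested. In the splenic comparison 8 rose and 0 fell by limma (0 lower at an unadjusted p below 0.05), with a median log2 change of 0.18. Of all genes, 7.67% were called higher and 4.86% lower there, with a median of 0.02. In the marrow comparison 9 rose and 1, Tigar, fell, with a median of 0.31. The shares of all genes there were 11.5% and 8.70%, with a median of 0.12. The largest rises were those of Slc2a8, Adpgk and Pygl. Slc2a8 encodes GLUT8, a transporter found mainly in inner membranes, and went from 94.4 ± 6.43 (SD, 3 arrays) in IL15tg spleen to 339.6 ± 49.3 in the NKDxIL15tg cells of spleen and 300.5 ± 92.5 in those of bone marrow. Its log2 changes were 1.84 ± 0.23 (adjusted p 0.00116) and 1.62 ± 0.23 (0.00149), larger than that of any tested member. Adpgk, a glucokinase that uses ADP, rose by 1.34 ± 0.17 (0.00146) and 1.66 ± 0.17 (0.000339), and its second probe set rose as well (0.94, 0.0271, and 1.31, 0.00455). Pygl, the liver form of glycogen phosphorylase, which frees glucose units from glycogen, rose by 1.33 ± 0.17 (0.00132) and 1.63 ± 0.17 (0.000325). These 3 genes were called in both comparisons under all 19 alternatives. Tigar, a phosphatase that lowers fructose 2,6-bisphosphate, fell by 0.41 ± 0.11 in the marrow comparison (0.0252) on its brightest probe set, while its other 2 probe sets had positive changes that did not pass. The Tigar call was lost without IL15tg spleen replicate 1 or 3 or NKDxIL15tg bone marrow replicate 1, with the 75th percentile, and with the mean of the probe sets (up to 0.928).

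Of 27 tested regulators of glycolysis, 2 rose (Hif1a and Myc) and 1 fell (Tsc1) in the splenic comparison, with a median log2 change of 0.01. In the marrow comparison 3 rose (Hif1a, Myc and Rptor) and 1 fell (Arnt), with a median of -0.10. These counts are near the shares of all genes called, 7.67% higher and 4.86% lower in the splenic and 11.5% and 8.70% in the marrow comparison, so they say nothing particular about this list. Hif1a, the oxygen-regulated subunit of HIF-1, read 605.4, 542.5 and 467.4 in IL15tg spleen, 981.3, 1036.5 and 919.3 in NKDxIL15tg spleen, and 1084.5, 838.2 and 939.5 in NKDxIL15tg bone marrow. The groups did not overlap, with rises of 0.87 ± 0.14 (adjusted p 0.00406) and 0.83 ± 0.14 (0.00362) that were called under all 19 alternatives. A second Hif1a probe set rose as well (0.89, 0.00144, and 0.74, 0.00249), and the remaining tested one did not pass (0.54, 0.0947, and 0.55, 0.067). Myc rose by 0.81 ± 0.17 (0.0144) and 0.82 ± 0.17 (0.0095). Its splenic call was lost without IL15tg spleen replicate 2 or 3 (up to 0.0591). Arnt, the partner of Hif1a, fell by 0.55 ± 0.15 in the marrow comparison (0.0336) on its brightest probe set, but another of its probe sets rose by 0.48 ± 0.12 (0.0229), so no direction is given. Rptor, a subunit of mTORC1, lost its call without any 1 of the IL15tg spleen arrays and with the mean of its probe sets (up to 0.115), and its other tested probe set did not pass (0.01, 0.970). Tsc1, an inhibitor of mTORC1, lost its call without any 1 of the 6 spleen arrays, with the 75th percentile and with the mean of its probe sets (up to 0.259), and its other 2 tested probe sets did not pass (0.30, 0.217, and -0.41, 0.147). Txnip, which restrains glucose uptake, had changes of -0.17 (0.658) and -0.37 (0.212).

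Known HIF targets outside glycolysis changed in both directions. Of 18 tested, 1 rose and 4 fell in the splenic comparison and 2 rose and 3 fell in the marrow comparison. Their medians were -0.09 and -0.13, against 0.02 and 0.12 for all genes. Of all genes, 7.67% were called higher and 4.86% lower in the splenic comparison. In the marrow comparison the shares were 11.5% and 8.70%. P4ha1, a collagen prolyl hydroxylase subunit, read 198.9, 184.7 and 155.8 in IL15tg spleen, 71.3, 87.1 and 74.4 in NKDxIL15tg spleen, and 52.7, 87.4 and 67.8 in NKDxIL15tg bone marrow. It fell without overlap by 1.21 ± 0.19 (adjusted p 0.00375) and 1.40 ± 0.19 (0.00126) and was called under all 19 alternatives. Nfil3, a transcription factor needed to form NK cells, fell by 1.12 ± 0.27 (0.0279) and 1.24 ± 0.27 (0.013). The splenic call of Nfil3 was lost without IL15tg spleen replicate 1 or 2 or NKDxIL15tg spleen replicate 1 or 3 and with no filter (up to 0.106), and the marrow call without IL15tg spleen replicate 1 or 2 (up to 0.0544). Ndrg1, a stress response gene, fell by 0.53 ± 0.12 (0.0197) and 0.54 ± 0.12 (0.013) on its brightest probe set. Of its other 3 tested probe sets, 1 also fell (-2.08 and -2.16) and the remaining ones did not pass. The Ndrg1 calls were lost without IL15tg spleen replicate 1 or 2, and the splenic one also without NKDxIL15tg spleen replicate 1 or 2 and with the 75th percentile (up to 0.0831). Ddit4, an inhibitor of mTORC1, rose by 0.66 ± 0.11 (0.00603) and 0.52 ± 0.11 (0.0126), and the latter was lost without IL15tg spleen replicate 1 (0.0565). Mif, a cytokine, rose by 1.03 ± 0.23 in the marrow comparison (0.0128), and this was also lost without IL15tg spleen replicate 1 (0.0581). Its other tested probe set did not pass (0.10, adjusted p 0.549).

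Between organs none of these 3 lists had a call by limma, with 3 higher and 2 lower at an unadjusted p below 0.05 among the other enzymes, 1 and 1 among the regulators and 1 and 0 among the HIF targets. The members themselves ranged from -0.48 (Slc2a3) to 0.70 (Hk3) on the log2 scale in that comparison, with a median of 0.13 against 0.03 for all genes. Bone marrow lay above spleen without overlap for 3 of 29 members, and below for 0, where 10.8% and 6.03% of all genes did so. Hk3 was not called at 0.70 ± 0.14 between organs (limma adjusted p 0.274) but was at 0.54 ± 0.14 in the marrow comparison (0.0284). The adjustment runs over all probe sets of a comparison, and few of any genes passed between organs. The median standard error was 0.15 per probe set. The lack of calls among members does not show that they do not differ between organs.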

How the data were processed

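RNA of 9 samples of sorted NK cells was measured on Affymetrix arrays with 45101 probe sets. Per the labels' protocols, 150 ng of total RNA per sample was amplified in 2 cycles from the 3′ end, which can dim probe sets far from that end. The authors' deposited table holds linear intensities, and the sources used here do not say how probes were summarised or arrays scaled. Array medians differed by at most 0.20 on the log2 scale, and the values were used as deposited. Intensities under a floor of 16 (4.36% of values) were set to 16, then log2 was taken. Probe sets with a mean log2 at or above the 40th percentile (5.58) were tested, 27043 in all. Of 64 control probe sets, 61 were left out and the 3 of Gapdh were kept.

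Group means were compared with limma 3.58.1 (lmFit, eBayes; R 4.3.3). Benjamini-Hochberg adjustment ran over all 27043 probe sets in each comparison, at a threshold of 0.05. A called probe set or gene is one past it. The method was tested on simulated data. Errors of log2 changes are limma's standard errors, and those of intensities are SD of 3 arrays. The number of arrays limits the precision. Ratios within an array were compared with an exact 2-sided permutation test.

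Genes were named from the platform annotation, which gives 1 symbol for 34958 probe sets, several for 932 and none for 9211. Of the probe sets with 1 symbol, 34754 matched RefSeq by gene ID and 0 symbols changed. A gene was read through its brightest probe set of 1 symbol. Promoter sequences are RefSeq's. The members and all gene lists were chosen with earlier results of these data known. All members are accounted for, and those with a called probe set are given in every array. Of the other lists, up to 3 genes a direction with the largest called change and genes acting directly on a step are named.

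Deviations from the group mean of same-numbered arrays correlated at 0.16, 0.16 and 0.12 between the spleen groups. Between the NKDxIL15tg organs they correlated at 0.38, 0.26 and 0.23, and between IL15tg spleen and NKDxIL15tg bone marrow at 0.17, -0.02 and 0.24. Arrays of unlike number were not set beside these, and the labels do not say what the numbers share. Whether the numbers pair arrays is therefore not known. The main fit used no block. The alternatives were 2 other scalings, 2 other floors, 2 other filters, a fit of only the 2 groups compared, array weights, the replicate number as a block, the mean of a gene's probe sets, and leaving out each array in turn.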

Additional observations from a re-analysis of the deposited data

Results flagged for a closer look

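Probe sets that the annotation assigns to Gapdh together with other loci were used for no gene, and 3 of them read more than 2 times the highest IL15tg spleen array in some NKDxIL15tg arrays. The probe set shared by Gapdh with Gapdh-ps15 and 3 more loci read 3370.0 in NKDxIL15tg spleen replicate 2, 3000.0 in NKDxIL15tg bone marrow replicate 1 and 3861.6 in bone marrow replicate 3, where the IL15tg spleen arrays read 1142.4 to 1453.8. It rose by 0.89 ± 0.24 in the splenic comparison (limma adjusted p 0.0404) and by 1.27 ± 0.24 in the marrow comparison (0.00663), in the direction of the Gapdh control probe sets. A probe set shared with Gapdh-ps15 alone read 316.2 in NKDxIL15tg bone marrow replicate 3, where the IL15tg spleen arrays read 143.2 to 154.1. Another shared with Gapdh-ps15 was at 864.8 on NKDxIL15tg bone marrow replicate 3, while the remaining 8 arrays spanned 115.7 to 184.0, so that this array alone stood out.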

How the results depend on the processing

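Of the calls named above, 2 of 6 members in the splenic comparison (Hk2 and Pdha1) and 4 of 11 in the marrow comparison (Hk2, Pdha1, Tpi1 and Gapdh) held under all 19 alternatives. The genes outside the members held in 8 of 13 and 8 of 16 calls. Changed directions came with the mean of a gene's probe sets, which gave log2 changes of 0.035 for Hk3 in the splenic comparison and 0.014 for both Tigar and Arnt in the marrow comparison. In the splenic comparison 3 members were called higher with a floor of 64 and 3 with no filter. Array weights gave 1 member called lower (Slc2a3) and 5689 probe sets. Leaving out 1 array gave 2 to 8 higher members and 1810 to 5488 probe sets, the latter without NKDxIL15tg bone marrow replicate 3. In the comparison of organs the probe sets called numbered 4 with a floor of 64, 2 with no filter, 23 with the replicate number as a block and 1 to 15 when 1 array was left out, and 0 members were called under every alternative. In the marrow comparison 1 member was called lower with a floor of 64, 1 with no filter and 1 with the mean of the probe sets. Leaving out 1 array gave 0 to 2 lower members, 4 to 10 higher members and 3093 to 6345 probe sets. The cause of these changes was not tested. The replicate block left the splenic calls of members at 6 higher and 0 lower, the same genes. In the marrow comparison it added Pfkfb4 to the 9 higher members, making 10. Scaling to the 75th percentile or quantile normalization moved the median of all tested probe sets by less than 0.1 on the log2 scale and left 24 of 29 members positive in the marrow comparison under each (25 as deposited). Several members, such as Slc16a3, Aldoc and the dim probe sets of Ldhb and Hk1, lay close to the limit for testing, where log2 changes are compressed.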

Other observations

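The members moved together across the arrays of NKDxIL15tg spleen more than other genes did. Replicate 3 was the lowest of that group for 21 of 29 tested members (72.4%), against 36.7% of all genes tested, and replicate 2 was the highest for 20 (69.0%), against 32.3%. The median deviation of the members from their mean over the 9 arrays was 0.11, 0.24 and -0.15 on the log2 scale in replicates 1, 2 and 3 of NKDxIL15tg spleen. The IL15tg spleen arrays had -0.24, -0.20 and -0.23, and the bone marrow arrays had 0.08, 0.15 and 0.22. Without NKDxIL15tg spleen replicate 3 the splenic comparison called 8 members higher, Aldoa and the brightest probe set of Pfkp in addition to the 6. In the splenic comparison with all arrays another Pfkp probe set fell by 0.94 (limma adjusted p 0.000824) and the remaining one rose by 0.64 (0.0368), so no direction is given for Pfkp. The T cell genes summed to 600.9, 1423.7 and 663.8 in replicates 1, 2 and 3 of NKDxIL15tg spleen. The actin 3′ to 5′ log2 ratio of these arrays was 1.54, 1.57 and 2.03. The part of either in the order of the members was not tested. These arrays were noticed after the values were seen, and no test was made.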
